A study of Ictidomys tridecemlineatus with 31 samples.

Results

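Glutamine use and ammonia production in the kidney of the 13-lined ground squirrel, *Ictidomys tridecemlineatus*, was followed through 8 genes, *Slc38a3*, *Ggt1*, *Slc1a1*, *Glud1*, *Glul*, *Got1*, *Got2*, and *Gpt2*. They were taken by symbol from a table of 12863 genes, and where a symbol stood on several rows the row with the highest mean was used, which concerned *Got2* alone (6 rows). All 8 were found. The animals were in 6 states, named here by the abbreviations of their labels. In the active, homeothermic part of the year, kidneys were taken in summer (summer active, SA) and in spring from animals still housed in the dark hibernaculum after their last torpor bout (spring dark, SpD). In the hibernation season they were taken from animals entering torpor with a falling body temperature (entrance, Ent), early (EAr) and later (LAr) in the spontaneous rewarming from torpor, and soon after rewarming was complete (interbout aroused, IBA). Animals carried temperature devices and had no other treatment, genotype, or age in their labels, and each value came from a fragment of 1 kidney of 1 animal, so the share of each nephron segment can differ between samples.

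The kidney takes glutamine from blood mainly in the proximal tubule, where *Slc38a3* encodes a glutamine carrier of the blood-facing membrane. Inside mitochondria, the amide nitrogen of glutamine is released as ammonium, and glutamate dehydrogenase, encoded by *Glud1*, removes the second nitrogen and leaves alpha-ketoglutarate, whose carbon can be made into glucose or burned. Glutamine synthetase, encoded by *Glul*, runs the other way and spends ammonium to rebuild glutamine. The aminotransferases move the nitrogen of glutamate onto other carbon skeletons, and the ammonium that reaches the urine carries acid out of the body. In the paragraphs that follow, genes are taken in the order of these roles.

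The table held 31 animals, 5 each of SA, IBA, Ent, EAr, and SpD and 6 of LAr, with no counts or depths. Each value is a batch-corrected regularized log (rlog) value, a count normalized for library size on the log2 scale, so 1 unit is a doubling. It is not scaled to transcript length, and levels are therefore compared between animals and not between genes. The main comparisons used 29 animals, 4 of SA and 5 of every other state, without K137 (SA) and K113 (LAr), which are shown apart. The authors left out these 2 because they lay apart from their groups in a clustering of the expression values, and describe them as apparent timing variants. The spread within SA and LAr thus rests on an exclusion drawn from the same data. Differences between states are fitted log2 differences from limma with state, sex, and experiment in 1 model, first state minus second, and q is the p value after Benjamini-Hochberg adjustment over all 12863 genes. A gene was called at q under 0.001, and a second, looser threshold of 0.05 is named where used. The sequencing was done as 2 experiments with different library kits, and SA, EAr, and LAr came from experiment 2 alone. In the following comparisons the same SA, SpD, and IBA animals recur, so that differences drawn from them are not independent of each other.

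Of the 8 genes, *Glul* and *Glud1* were called across the 6 states, where 9.34% of all genes were called. At q under 0.05 the members were *Glul*, *Glud1*, *Slc1a1*, *Gpt2*, and *Got1*, 5 of 8 against 46.1% of all genes. The season comparison, the mean of the 4 hibernation states minus that of SA and SpD, gave lower values in hibernation for these same 5 genes at q under 0.05, where 16.8% of all genes were lower (33.4% in either direction). At 0.001 *Glul* and *Glud1* passed, where 5.29% of all genes were lower and 9.73% differed in either direction. This comparison pools the 4 hibernation states, and a call does not mean that a gene was low in each. *Slc1a1* was lowest in IBA, whereas *Got1* in IBA lay near its active states. The median season difference was -0.23 over the members and 0.00 over all genes. *Slc38a3*, *Ggt1*, and *Got2* were not called across states or between seasons at either threshold, with q = 0.0509, 0.122, and 0.103 across states.

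**Figure D1:**
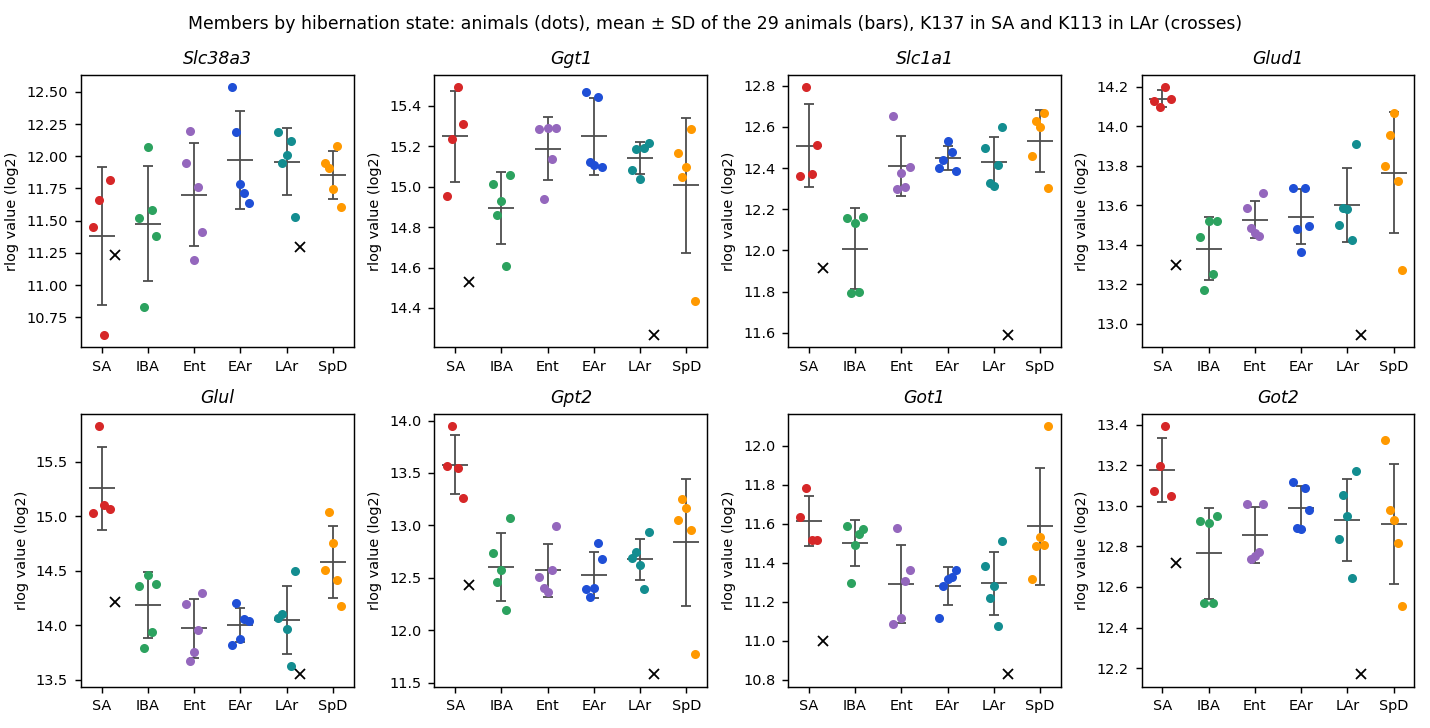
Rlog value (log2, y axis, own scale per panel) of each member gene in each animal by hibernation state. Dots are the 29 animals, bars are the mean ± SD of each state, and crosses are K137 in SA and K113 in LAr. Among the dots, SA lies above all other states in *Glud1* and *Gpt2*, and IBA lies below all other states in *Slc1a1*. The crosses lie low in most panels.

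*Glul*, the glutamine synthetase gene (gene3646), had the largest season difference of the 8. In SA it read 15.03, 15.07, 15.11, and 15.82 in K138, K141, K140, and K139. In SpD it read 14.17, 14.42, 14.51, 14.75, and 15.04 in K130, K84, K9, K6, and K3, so that spring overlapped both SA and the hibernation states. The 20 hibernation animals lay between 13.63 (K115, LAr) and 14.49 (K116, LAr), with state means of 14.18 ± 0.30 in IBA (SD, n = 5), 13.97 ± 0.27 in Ent, and 14.05 ± 0.31 in LAr, and with EAr between 13.82 and 14.21. Every SA animal of the main set was above every hibernation animal, and no pair of the 4 hibernation states passed q under 0.05. The share of all genes with this separation was not computed. For IBA and SA alone, 18.8% of all genes did not overlap. K137, the SA animal left out, read 14.21, within the range of the hibernation animals. The season difference was -0.87 (SE 0.12, q = 7.81e-06, limma), and *Glul* was 1.82-fold higher in the active states. Against SA, *Glul* was lower in IBA by a fitted 2.2-fold (log2 -1.14, SE 0.22, q = 0.000756). The mean of SpD lay between, below SA (SA/SpD 0.74, q = 0.0309). Against the hibernation states SpD passed q under 0.05 for Ent (Ent minus SpD -0.61, q = 0.0355) and did not for IBA (SpD/IBA 0.39, q = 0.168), EAr (EAr minus SpD -0.50, q = 0.0891), or LAr (LAr minus SpD -0.47, q = 0.108). The SA/SpD call was lost without SpD replicate 130 (K130, 0.60), without SA replicate 139 (0.55), and also without SA replicate 140 or SpD replicate 84.

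*Glud1*, the gene of mitochondrial glutamate dehydrogenase (gene16297), stood highest in summer, with a very small spread among the 4 SA animals of the main set. The SA animals read 14.10, 14.13, 14.14, and 14.20 in K139, K138, K141, and K140, against 13.17, 13.25, 13.44, 13.52, and 13.52 in IBA (K7, K104, K4, K1, and K171). SA lay above every other state without overlap, which was the case for *Glud1* and *Gpt2* among the members (2 of 8) and for 0.801% of all genes. In SpD the values were 13.27 (K130), 13.73 (K84), 13.80 (K9), 13.96 (K3), and 14.07 (K6). Ent, EAr, and LAr had means of 13.53 ± 0.09, 13.54 ± 0.14, and 13.60 ± 0.19 (SD, n = 5 each), within each other's spread. IBA was 1.8-fold below SA (log2 -0.84, SE 0.13, q = 9.89e-05) and the season difference was -0.44 (SE 0.07, q = 5.69e-05). SpD was above IBA (0.38, q = 0.0248) and below SA (SA/SpD 0.46, q = 0.0278). SA/SpD was 0.27 (q = 0.234) without K130, and its call was also lost without SA replicate 138 or 140. SpD/IBA was 0.57 as a difference of means in experiment 1 and 0.11 in experiment 2, and its call was lost without IBA replicates 70 or 104 or SpD replicates 80 or 83.

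The aminotransferases did not share 1 pattern. *Gpt2*, the gene of mitochondrial alanine aminotransferase (gene2168), read 13.26, 13.55, 13.56, and 13.95 in SA (K141, K140, K138, and K139). In IBA it read 12.20, 12.46, 12.57, 12.73, and 13.07 (K104, K7, K1, K4, and K171), and the means of Ent, EAr, and LAr were 12.57 ± 0.25, 12.53 ± 0.22, and 12.67 ± 0.20 (SD, n = 5 each). SA again lay above all other animals of the main set, whereas K137, left out, read 12.43, within the IBA range. In SpD 4 animals lay between 12.96 and 13.26 and K130 read 11.77, below the other 28 animals of the main set. The IBA/SA difference was -1.06 (SE 0.25, q = 0.00428), a 2.08-fold lower level, and the season difference was -0.62 (SE 0.14, q = 0.00125). Against SpD, no hibernation state passed q under 0.05 in the main set. SpD/IBA was 0.23 (q = 0.52) and Ent minus SpD was -0.27 (q = 0.423). EAr minus SpD was -0.23 (q = 0.54) and LAr minus SpD was -0.09 (q = 0.831). Without K130 the season difference was -0.77 (q = 4.56e-06) and *Gpt2* was called across states (q = 8.65e-05, against 0.0055 with K130), whereas SA/SpD dropped from 0.82 (q = 0.0393) to 0.34 (q = 0.342).

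*Got1*, the gene of the cytosolic aspartate aminotransferase (gene17707), was high in IBA as well as in the active states. Its means were 11.61 ± 0.13 in SA (SD, n = 4), 11.59 ± 0.30 in SpD, and 11.50 ± 0.12 in IBA (n = 5 each), against 11.29 ± 0.20 in Ent, 11.28 ± 0.10 in EAr, and 11.29 ± 0.16 in LAr. The 3 states in which animals were warm thus had the 3 highest means, but with overlap between the groups. None of the 7 consecutive pairs was called for *Got1* at q under 0.05, IBA/LAr coming closest (0.31, q = 0.0712). Between states that do not follow each other, EAr was lower than SA (SA minus EAr 0.33, q = 0.0362) and SpD (EAr minus SpD -0.42, q = 0.0196), and LAr was lower than SA (SA minus LAr 0.32, q = 0.0423) and SpD (LAr minus SpD -0.40, q = 0.0237). In SpD, K130 stood at 12.10, above every other animal of the series, where the other 4 SpD animals read 11.32 to 11.53. The season difference was -0.26 (SE 0.07, q = 0.00578) and -0.20 (q = 0.0136) without K130.

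*Got2*, the gene of the mitochondrial aspartate aminotransferase, was not called across states. The row used (gene9847) had means from 12.77 ± 0.22 in IBA (SD, n = 5) to 13.18 ± 0.16 in SA (n = 4), with Ent at 12.86, SpD at 12.91, LAr at 12.93, and EAr at 12.99. IBA was lower than SA without overlap of the animals (log2 -0.49, SE 0.14, q = 0.0173), where 18.8% of all genes did not overlap, and no other of the 7 pairs passed q under 0.05. The call was lost without IBA replicate 104 or SA replicate 140. The identity of this row is uncertain. RefSeq, on another assembly of this species (mIctTri1.hap1), lists its locus as a pseudogene and gives the protein-coding *Got2* gene the locus that the table holds as gene26236, whereas the authors' own annotation used the name *Got2* for yet another row, gene2288. Near-identical copies share reads, and the quantification could split them between rows. The plot of the 6 rows shows that all had their lowest or second lowest mean in IBA. For IBA/SA, gene26236 gave -0.49 (q = 0.0375), gene2288 -0.54 (q = 0.0654), G14137 -0.57 (q = 0.00703), G14138 -0.67 (q = 0.0118), and G13506 -0.27 (q = 0.173). None of the 6 rows passed q under 0.05 for the season difference.

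**Figure D2:**
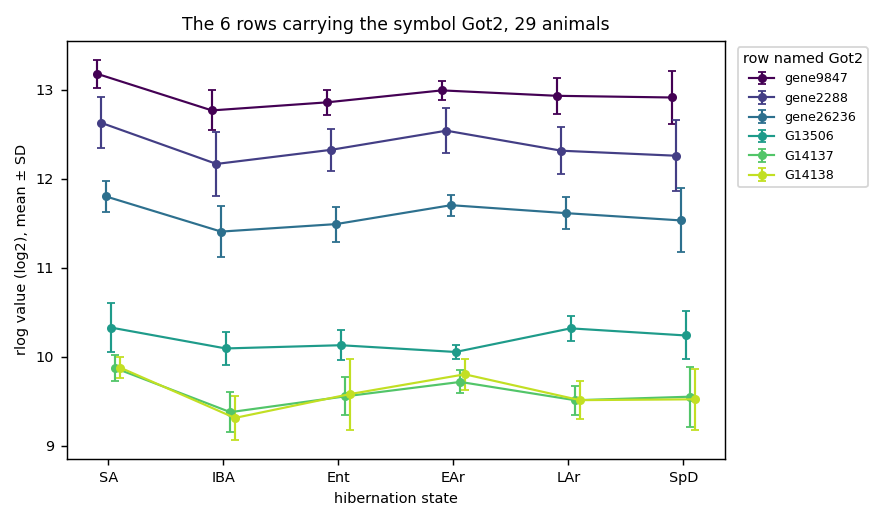
Rlog value (log2, y axis) of the 6 table rows that carry the symbol *Got2* by hibernation state (x axis). Points are means and bars are SD over the animals of each state (SA 4, others 5). The row used, gene9847, is the highest in every state, and 5 of the 6 rows have their lowest mean in IBA.

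Among the carriers, *Slc1a1* encodes the sodium-dependent carrier that takes glutamate and aspartate back from the tubular fluid (gene7539). In IBA it read 11.79, 11.80, 12.13, 12.16, and 12.16 in K7, K104, K1, K4, and K171. The lowest of the other 24 animals read 12.30, so that IBA lay below every other state without overlap, 1 of 8 members against 0.202% of all genes. The means of the other 5 states ran from 12.41 ± 0.14 in Ent to 12.53 ± 0.15 in SpD (SD, n = 5 each), and none of the neighbors in this order passed the test (lowest q = 0.715). *Slc1a1* was lower in IBA than in SA (log2 -0.55, SE 0.11, q = 0.00141) and LAr (-0.47, SE 0.11, q = 0.00496), and was higher again in Ent (0.40, SE 0.10, q = 0.00886) and SpD (0.52, SE 0.10, q = 0.000994) than in IBA. Its season difference was -0.20 (q = 0.0153). At q under 0.05, Ent, EAr, and LAr differed from neither SA (lowest q = 0.411) nor SpD (lowest q = 0.42). Within experiment 1 the Ent/IBA and SpD/IBA differences of means were 0.42 and 0.53 (3 animals each), and within experiment 2 they were 0.38 and 0.51 (2 animals each). K137 (11.91) and K113 (11.59), left out of these comparisons, both lay within or below the IBA range, and with them counted, IBA/SA was -0.43 (q = 0.0975).

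*Slc38a3*, the glutamine carrier (gene10191), had its lowest means in SA (11.38 ± 0.53, SD, n = 4) and IBA (11.48 ± 0.44, n = 5) and the highest in EAr (11.97 ± 0.38) and LAr (11.96 ± 0.26). Its spread was wide, from 10.61 (K140) to 11.81 (K141) in SA and from 10.83 (K7) to 12.07 (K1) in IBA. EAr was above SA (SA minus EAr -0.63, SE 0.21, q = 0.0317) and IBA (IBA minus EAr -0.64, SE 0.22, q = 0.0493), with overlap between the animals in both cases, and none of the 7 consecutive pairs passed q under 0.05. The median of all genes was 0.00 in both comparisons. Males read lower than females (male minus female -0.37, SE 0.12, unadjusted p = 0.0045), but this did not pass the adjustment over all genes (q = 0.491, limma). None of the other 7 members had an unadjusted p under 0.05 for sex, and 6.41% of all genes did.

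*Ggt1*, the gene of the brush-border gamma-glutamyltransferase that begins the breakdown of glutathione in the tubular fluid (gene16964), varied little between states. Its means were 15.25 ± 0.22 in SA (SD, n = 4), 15.25 ± 0.19 in EAr, 15.19 ± 0.16 in Ent, 15.14 ± 0.08 in LAr, 15.01 ± 0.33 in SpD, and 14.89 ± 0.18 in IBA (n = 5 each). IBA/SA was -0.42 (95% confidence interval -0.75 to -0.10, q = 0.0537), and the season difference was -0.01 (-0.18 to 0.17).

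**Figure D3:**
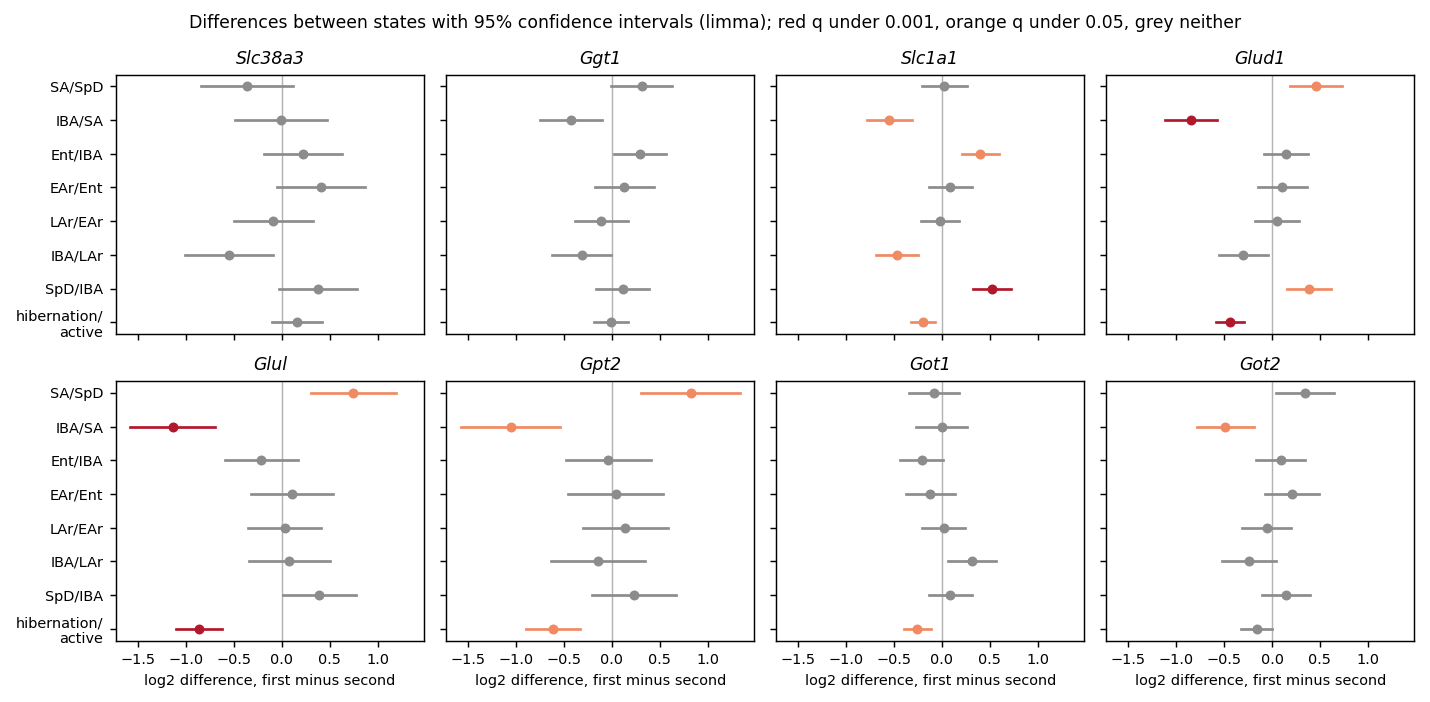
Fitted log2 differences (x axis) of each member for the 7 consecutive pairs of states and for hibernation minus active, first state minus second, with 95% confidence intervals from limma. Red marks q under 0.001, orange q under 0.05, and gray neither. For IBA/SA the 8 points all lie at or below 0, and *Got1* and *Slc38a3* lie next to it.

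Of the 7 pairs, IBA/SA had the most members called. At q under 0.001, 2 of 8 were called for IBA/SA (3.15% of all genes), and at q under 0.05, 5 of 8 were lower in IBA (12.5% of all genes lower, 22.9% in either direction), with a median difference of -0.52 over the members and 0.03 over all genes. For SpD/IBA, 1 of 8 was called at 0.001 (1.25% of all genes) and 2 at 0.05 (11.9%). For SA/SpD, 3 passed 0.05 and none passed 0.001 (10.5% and 0.0544% of all genes). *Slc1a1* alone passed 0.05 for Ent/IBA (13.1% of all genes) and for IBA/LAr (18%), and no member passed 0.001 (0.746% and 1.43%). Between Ent and EAr and between EAr and LAr none of the 8 passed 0.05 or had an unadjusted p under 0.05 (limma), where 0.257% and 0.575% of all genes passed 0.05 and 0.132% and 0.295% passed 0.001. For the other pairs named above, the shares of all genes at q under 0.05 were 24.1% for SA with EAr, 27.4% for SA with LAr, 17.7% for IBA with EAr, 19.2% for EAr with SpD, 19.1% for LAr with SpD, and 10.6% for Ent with SpD. For SA with Ent the share was 14.8%. The interaction of season and sex passed 0.05 for no member and for 0% of all genes. In that limma fit 4.63% of all genes had an unadjusted p under 0.05, among them *Slc1a1* with an interaction of 0.34 (q = 0.778).

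All 8 genes are expressed in the proximal tubule, and the level of proximal tubule markers differed between the samples. Of 18 markers, 16 were in the table, with defining genes such as *Slc34a1* and *Lrp2* among them, and *Acsm2a* and *Slc17a3* were absent. Their mean ran from 14.30 to 14.53 in SA and from 13.18 to 13.82 in IBA, which did not overlap. It was 13.79 ± 0.18 in Ent, 13.95 ± 0.13 in EAr, 13.89 ± 0.13 in LAr, and 14.02 ± 0.52 in SpD (SD, n = 5 each). Between seasons 7 of the 16 markers were lower in hibernation at q under 0.05 and none was higher (16.8% of all genes lower). For IBA/SA, 9 of 16 were lower in IBA (12.5% of all genes lower). In bulk samples, fewer proximal tubule cells and less RNA of these genes per cell cannot be told apart. For other cells, 5 of 6 endothelial markers were lower in hibernation. So were 3 of 6 each of the loop of Henle, principal cell, and intercalated cell, and 2 of 6 of the fibroblast. The distal convoluted tubule had 1 of 4 lower and the macrophage 1 of 5, with a macrophage median of 0.01. None was lower for the podocyte (0 of 5) or for the lymphocyte and neutrophil (0 of 1). These counts stand beside the 16.8% of all genes that were lower. For IBA/SA, 2 of 4 markers of the distal convoluted tubule (median -0.70), 2 of 5 of the podocyte (median -0.50), and the 1 lymphocyte and neutrophil marker in the table (-0.96) were lower in IBA, and beside the proximal tubule none of the other lists had a marker that passed. The part of any of these cell types in the results was not tested beyond the model that follows.

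Given state, sex, and experiment, the slope on the proximal tubule marker mean was positive and called for *Gpt2* (1.14 log2 units per unit, SE 0.17, q = 5.95e-05), *Got2* (0.65, SE 0.10, q = 6.29e-05), and *Glud1* (0.57, SE 0.09, q = 0.000152), 3 of 8 against 4.24% of all genes. *Glul* (0.80), *Ggt1* (0.53), and *Slc1a1* (0.35) passed 0.05, 6 of 8 in all against 25.7% of all genes, and *Slc38a3* (0.34, q = 0.334) and *Got1* (-0.22, q = 0.259) did not. With this term in the model, *Glul* alone was called across states (q = 0.000297, with 10.9% of all genes called), and its season difference was -0.54 (q = 0.00121). At q under 0.05, 3 of 8 members were lower in hibernation, against 18.4% of all genes. *Glud1* had q = 0.0228 across states and a season difference of -0.21 (q = 0.00787), and *Got1* had one of -0.35 (q = 0.00407). The season difference of *Gpt2* became -0.15 (q = 0.295) and that of *Slc1a1* -0.05 (q = 0.573). No IBA/SA difference of a member passed 0.05 in this model, and 4 of 8 changed sign, those of *Gpt2* (0.09), *Got2* (0.17), *Ggt1* (0.11), and *Slc38a3* (0.33). The share of all genes was not computed for either IBA/SA count, so neither sets the members apart from other genes. For *Slc1a1*, SpD/IBA went from 0.52 to 0.35 (q = 0.0138) and Ent/IBA from 0.40 to 0.31 (q = 0.0146), both past 0.05 and not 0.001, and IBA/LAr went from -0.47 to -0.29 (q = 0.0822). The marker mean itself differed between SA and IBA, so the term takes up part of that difference by construction.

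**Figure D4:**
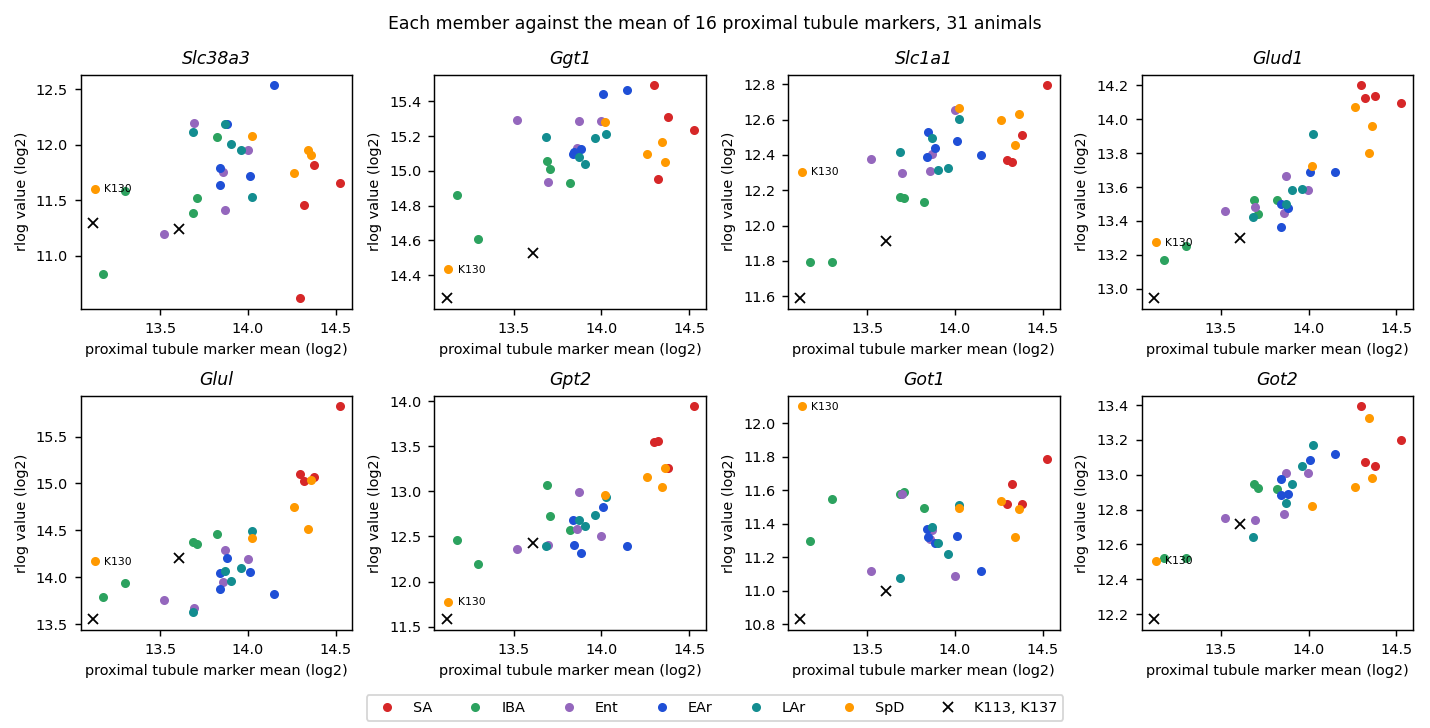
Rlog value of each member (log2, y axis, own scale) against the mean of 16 proximal tubule markers (log2, x axis) in 31 animals, colored by state, with K113 and K137 as crosses. Dots rise from left to right in *Gpt2*, *Glud1*, and *Got2*, and K130 lies at the left with the highest *Got1* value of all animals.

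K113 and K137 were low for nearly all of these genes. K113 lay below each of the other 5 LAr animals in 8 of 8 members, with log2 differences from their mean of -0.47 (*Got1*) to -1.10 (*Gpt2*), where it lay lowest for 37.2% of all genes. K137 lay below the other 4 SA animals in 7 of 8 members and within them for *Slc38a3* (29.5% of all genes lowest), with *Gpt2* at 12.43 and *Glul* at 14.21. K130, an SpD animal kept in the main set, was lowest for 7 members and highest for *Got1* (28.4% of all genes lowest). The proximal tubule marker mean was also the lowest of its state in each, at 13.12 in K113, 13.61 in K137, and 13.13 in K130. With K113 and K137 included, 17 of 17 differences called at q under 0.05 for the members over the 7 pairs and the season kept their direction, 7 kept q under 0.05, and 1, the season difference of *Glul* (-0.78, q = 0.000134), kept q under 0.001. Ent/IBA (0.40) and SpD/IBA (0.52) of *Slc1a1* and SpD/IBA (0.38) of *Glud1* involve the state of neither animal. Their values were the same in both settings, so their direction could not change.

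In experiment 2 taken alone, where IBA, Ent, and SpD keep 2 animals each, 17 of these 17 differences kept their direction and 12 kept q under 0.05. Experiment 2 holds every SA, EAr, and LAr animal of the main set, so these directions are not independent of the main fit. The season difference was -0.70 for *Glul* (q = 0.00129), -0.30 for *Glud1* (q = 0.0131), and -0.32 for *Got1* (q = 0.00533). It was -0.32 for *Gpt2* (q = 0.163) and -0.20 for *Slc1a1* (q = 0.0543). Within experiment 1, which has no SA animals, the difference of means between SpD and IBA was 0.56 for *Glul*, 0.57 for *Gpt2*, and 0.57 for *Glud1*, with 3 animals each. In experiment 2 it was 0.14, -0.27, and 0.11, where K130 was 1 of the 2 SpD animals.

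The wider pathway was read from 7 lists that together held 96 genes in the table besides the members. Of these, 44 were lower in hibernation and 9 higher at q under 0.05, with a median season difference of -0.17, whereas over all genes 2158 were lower and 2136 higher, with a median of 0.00. For IBA/SA, 41 of the 96 were lower in IBA and 3 higher (1605 and 1337 of all 12863 genes). With the proximal tubule marker term, 28 of the 96 were lower in hibernation and 26 higher, with a median of -0.03, where 36.4% of all genes passed in either direction. Of the 53 called without the term, 8 changed sign with it.

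**Figure D5:**
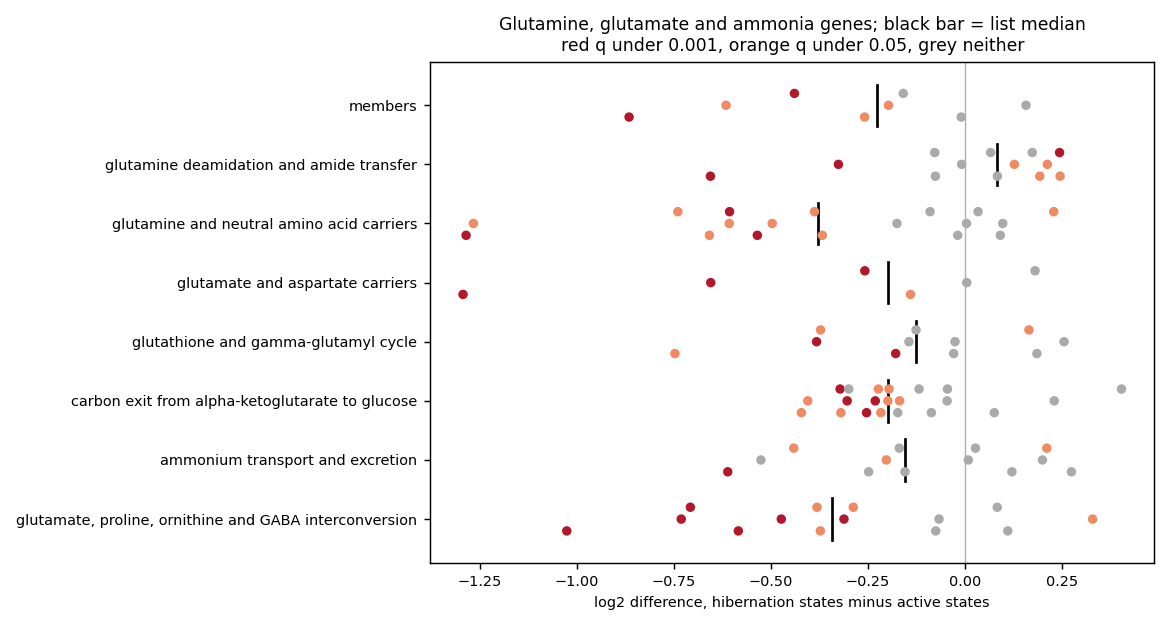
Season difference (hibernation minus active, log2, x axis) of each gene of the members and of the 7 pathway lists. Each dot is a gene, red with q under 0.001, orange with q under 0.05, and gray otherwise, and the black bar is the median of the list. Medians lie below 0 for the members and 6 lists and above 0 for glutamine deamidation and amide transfer.

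The list of glutamine deamidation and amide transfer went both ways. *Gls2*, which encodes a glutaminase, had low values, with state means from 7.08 in IBA to 7.30 in SA. These lie close to the rlog of 7 used in the authors' filter. Its season difference was -0.08 (q = 0.215), and it was lower in IBA than in SA (-0.25, q = 0.0449). At this level the season value does not show that *Gls2* was unchanged. In this list of 13 genes, 2 were lower and 5 higher in hibernation at q under 0.05, with a median of 0.08. One of the lower genes was *Gfpt2* (-0.66, q = 0.000108), which makes glucosamine 6-phosphate. The 5 higher genes included *Asns*, the asparagine synthetase gene, at 10.25 to 10.39 in the active states and 10.48 to 10.60 in the hibernation states as means (0.24, SE 0.04, q = 4.56e-05).

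The largest decreases among the 96 genes were those of amino acid carriers. Of 18 neutral amino acid carriers in the table, 10 were lower and 1 higher in hibernation, with a median of -0.38. *Slc6a20*, which carries proline and other imino acids, fell from means of 9.36 in SA and 9.57 in SpD to between 7.82 and 8.44 in the hibernation states (-1.29, SE 0.19, q = 2.71e-05). *Slc6a19*, the brush-border carrier of glutamine and other neutral amino acids, read 11.80 in SA, 10.14 in IBA, and 10.87 in SpD (IBA/SA, q = 0.00164), and its season difference of -0.74 (q = 0.014) became 0.13 (q = 0.466) with the proximal tubule marker term. *Cltrn*, a partner protein of that carrier, was lower in hibernation too (-0.61, q = 0.00011), also with the marker term (-0.55, q = 0.00385). *Slc7a7*, a basolateral carrier, had a season difference of -0.61 (q = 0.0155), and of -0.03 with the marker term (q = 0.92). *Slc1a5*, another glutamine carrier, had one of -0.50 (q = 0.00419).

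The list set up for carriers of glutamate and aspartate beside *Slc1a1* had 6 genes in the table, 4 lower and none higher in hibernation, with a median of -0.20. Of the 4, *Slc25a44* (-0.26, SE 0.04, q = 4.52e-05) is a mitochondrial carrier of branched-chain amino acids and *Slc1a4* (-0.65, q = 0.000796) a carrier of neutral amino acids, so the count is not one of glutamate and aspartate carriers alone. The others were *Slc25a12*, a mitochondrial aspartate and glutamate exchanger (-0.14, q = 0.0237), and *Slc7a13* (-1.29, SE 0.23, q = 0.000199), a proximal tubule carrier that is also among the 16 markers. In the glutathione and gamma-glutamyl cycle, where *Ggt1* belongs, 4 of 11 were lower and 1 higher. *Lap3*, an aminopeptidase, was lower (-0.18, SE 0.04, q = 0.000456). *Gclc*, the catalytic subunit of the enzyme that starts glutathione synthesis, differed across states (q = 0.000445) and not between seasons (-0.03, q = 0.694), with its highest mean in IBA (11.48) and its lowest in Ent (11.05).

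The path that carries the carbon of alpha-ketoglutarate on toward glucose held 21 genes, of which 12 were lower and none higher in hibernation, with a median of -0.20. For IBA/SA, 15 of 21 were lower. With the proximal tubule marker term, 3 were lower between seasons and 4 higher, with a median of -0.01. *Fh*, the fumarase gene, was 13.69 in SA, 13.39 in SpD, and 13.18 to 13.37 in the hibernation states (-0.25, SE 0.05, q = 0.00026). *Pck1*, the cytosolic phosphoenolpyruvate carboxykinase that commits this carbon to glucose, did not pass the test (0.40, SE 0.18, q = 0.0909), with means of 16.98 in SA, 17.09 in SpD, and 16.94 in IBA against 17.55 in Ent, 17.70 in EAr, and 17.56 in LAr. With the marker term its season difference was 0.98 (q = 8.16e-05), and it was 1 of the 4 genes higher in that model.

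Of 13 genes of ammonium transport and excretion, 3 were lower and 1 higher in hibernation, and 4 were lower and 6 higher with the proximal tubule marker term. *Slc9a3*, the brush-border sodium/proton exchanger that can also move ammonium into the tubular fluid, was 11.65 in SA and 11.61 in SpD against 10.93 to 11.18 in the hibernation states (-0.61, SE 0.12, q = 0.000364). The ammonia channels of the collecting duct did not pass the test, with 0.27 (q = 0.0624) for *Rhbg* and -0.15 (q = 0.323) for *Rhcg*. With the marker term *Rhbg* passed (0.58, q = 0.000673) and *Rhcg* did not (-0.12, q = 0.575). For genes from outside the proximal tubule, this term can also follow the share of the other segments in a fragment. The counts and differences with the term therefore do not separate tissue content from expression, and the part of either was not tested.

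The interconversion of glutamate with proline, ornithine, and GABA and the other aminotransferases had 14 genes in the table, 9 lower and 1 higher in hibernation, with a median of -0.34. *Abat*, the transaminase that breaks down GABA, had means of 13.73 in SA and 13.38 in SpD against 12.28 in IBA, 12.54 in Ent, 12.61 in EAr, and 12.69 in LAr (-1.03, SE 0.09, q = 1.15e-08). *Gpt*, the cytosolic counterpart of *Gpt2*, was lower in hibernation as well, with 11.45 in SA and 11.30 in SpD against 10.47 to 10.80 in the hibernation states (-0.73, SE 0.07, q = 5.53e-08), and it was at -0.60 (q = 1.17e-05) with the marker term. *Aadat* (-0.58, q = 6.15e-06) and *Psat1* (-0.47, q = 3.34e-05), which also pass nitrogen to or from glutamate, were lower too, *Psat1* lowest in IBA (11.70) and highest in SA (12.73).

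As a description, the genes with the values most like those of each member over the 29 animals were found by Pearson's r across animals, which share state, experiment, and tubule content. *Glud1* went with *GBA3* (r = 0.954), *Maob* (0.949), and *Tinag* (0.942), *Gpt2* with *Rhobtb1* (0.931), *Tinag* (0.922), and *PPDPFL* (0.916), and *Glul* with *Ido2* (0.900), *GLYAT* (0.895), and *Ivd* (0.882). For *Got2* they were *Susd2* (0.881), *Serpinf2* (0.880), and *Slc5a12* (0.879), the last one of the 16 proximal tubule markers. *Ggt1* went with *Rab5c* (0.873), *Nipsnap1* (0.852), and LOC101968734 (0.836). Likeness was weaker for *Slc1a1* (*CUNH6orf89* 0.826, *Gstk1* 0.795, *Rgn* 0.773), *Got1* (*Klhl38* 0.818, *Adgrf5* 0.798, *Esf1* 0.789), and *Slc38a3* (*P4hb* 0.785, *FER1L4* 0.761, *MKRN1* 0.754). Among the members, r was 0.87 for *Glud1* with *Gpt2*, 0.86 for *Glul* with *Gpt2*, and 0.83 for *Glud1* with *Glul* over the 29 animals, and -0.55 for *Ggt1* with *Got1*.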

How the data were processed

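Per the labels and the study's methods, the authors sequenced polyadenylated RNA, cut adapters off with cutadapt, set mitochondrial reads aside with HISAT2, and assigned the rest to HiC_Itri_2 transcripts with Salmon. The authors turned gene sums into rlog values with DESeq2, genes reaching an rlog of 7 in most animals of a group were kept, and limma took out the difference between experiments. The deposited values are thus batch-corrected log2 values. Counts were not used here, so limma 3.58.1 in R 4.3.3 took the place of the authors' DESeq2 test, with the study's terms (sex, experiment) and threshold (0.001), an intensity trend, and Benjamini-Hochberg adjustment per contrast over all genes. The fit does not count the degree of freedom already spent on removing the difference between experiments. Depth is unknown, and precision rests on the spread between animals (median residual SD 0.155). Replicates are separate animals.

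All members are named. Of the lists, genes with q under 0.001 across states are named, and always *Gls2*, *Pck1*, *Slc1a5*, *Slc7a7*, *Slc6a19*, *Rhbg*, *Rhcg*, and *Slc9a3*, together with the 3 genes most like each member. One further gene of this rule is not reported here, though list counts include it. *Slc7a13*, *Slc1a4*, and *Slc25a12* were added after their values were seen. Members and lists, written from general knowledge, were chosen with earlier results of these data known. All 8 symbols matched RefSeq, though the *Got2* row used is at a locus listed there as a pseudogene. The RefSeq assembly is not the authors', so no positions are given. Tests were two-sided, and the model was tested on simulated data. Plots were made in Python 3.11.15 (matplotlib 3.10.9).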

Additional observations from a re-analysis of the deposited data

Results flagged for a closer look

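Within each state of 4 to 6 animals, 70 groups of values were checked for an animal standing apart by Dixon's ratio. They were the 8 members and the proximal tubule marker mean, the members in SA and LAr also without K113 and K137. An animal stood apart in 10 groups, where chance gives about 1 in 20 for independent groups. The groups share animals and correlated genes, so this rate is no test of the count. All flags but that of K139 fell on K113, K137, and K130. The authors had already left out K113 and K137 for lying apart in the same expression data. K113 stood below the other LAr animals in *Ggt1* (14.3, next animal 15.04), *Slc1a1* (11.6, next 12.31), and the proximal tubule marker mean (13.1). K137 stood below the other SA animals in *Glud1* (13.3, next 14.10) and the marker mean (13.6). K130 stood below the other SpD animals in *Ggt1* (14.4), *Gpt2* (11.8, next 12.96), and the marker mean (13.1) and above them in *Got1* (12.1, next 11.53). K139 stood above the other 3 SA animals of the main set in *Glul* (15.8, next 15.11). The causes were not tested.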

How the results depend on the processing

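At q under 0.001 the members gave 2 calls across states, 3 over the 7 pairs, 2 for season, 0 for sex, 0 for season by sex, and 3 for the slope on the proximal tubule marker mean. With all 31 animals these counts were 0, 0, 1, 0, 0, and 6. In experiment 2 alone they were 1, 0, 0, 0, 0, and 0, and fewer animals then entered each state. With the marker mean as a term they were 1 across states, 0 over the pairs, and 0 for season. Animal weights gave 4 across states and 1 for the slope, and a fit of only the 2 groups compared gave 0 over the pairs. At q under 0.05 the counts were 5, 12, and 5, and 6 for the slope. Among the members' 17 differences called at 0.05 over the pairs and season, those that changed sign were IBA/SA of *Got2* (0.17) and *Gpt2* (0.0887), with the marker term. Of 53 season differences called at 0.05 in the pathway lists, 8 changed sign with that term, *Slc6a19* (0.13) among them. Apart from constructions named here, the cause was not tested. Shares of all genes were drawn for the main fit and, across states and for season, with the marker term. They were not drawn for the other settings or with 1 animal left out, so a changed count there is no result about the members.

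Leaving out 1 animal at a time, the count across states ran from 1 to 4, that over the pairs from 1 to 4, that for season from 2 to 3, and that for the slope from 1 to 3. Across states it was 1 without IBA replicate 104 or any of SA replicates 138, 139, 140, and 141, and 4 without SpD replicate 130, where the slope count was 1. Over the pairs it was 1 without IBA replicates 70 or 104, SA replicates 138, 140, or 141, SpD replicates 80, 83, or 84, LAr replicates 109, 111, or 112, Ent replicate 155, or EAr replicates 156, 157, 158, or 165. It was 4 without IBA replicate 171. No paired analysis was possible because the states share no animal numbers.

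Limits are the absence of counts, 4 or 5 animals per state, kidney fragments of unequal tubule content, season and experiment that overlap in part, and 6 rows for *Got2*.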
